A study of Rattus norvegicus with 12 samples.

Results

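The insulin-like growth factor (IGF) family was followed in left ventricle of rats with myocardial infarction (MI). Its 10 genes were chosen by symbol, out of 30560 genes in the count table: the ligands Igf1 and Igf2, the receptors Igf1r and Igf2r, and the binding proteins Igfbp2, Igfbp3, Igfbp4, Igfbp5, Igfbp6 and Igfbp7. RNA-seq was available from 12 hearts of male Wistar rats operated at 7 weeks of age, with 4 rats in each of 3 groups and 1 library per rat. Sham rats had the chest opened without a suture and were given vehicle (carboxymethylcellulose) by gavage. MI rats had the left anterior descending coronary artery permanently ligated and were given the same vehicle. MI + UA rats had the same ligation and were gavaged daily for 8 weeks with urolithin A (UA), a gut microbial product of ellagitannins. The sources differ on the dose of UA and on whether it began the day after surgery or a week after it. Rats with small infarcts had been left out by echocardiography, so MI and MI + UA stand for large infarcts. RNA came from sections of fixed, paraffin-embedded blocks of the middle region of the ventricle. Rat 66 was labelled as UA-treated but stands with the vehicle-treated MI rats in a supplementary table. It was kept in MI + UA, and values with it moved or left out are given where they matter.

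Depth on genes was 6228706 to 8958828 reads in the Sham libraries, 6829591 to 12743184 in MI and 6819444 to 19031695 in MI + UA. Levels are given as CPM, the reads of a gene set against the total reads of its library, with libraries scaled by edgeR's TMM factors. Per-rat values are listed in the order of rats 12, 17, 32 and 38 for Sham, 36, 57, 61 and 89 for MI, and 29, 58, 64 and 66 for MI + UA. CPM is not corrected for gene length, so the level of a gene was compared between rats and not with that of another gene. Since each library is a different rat, the p-values set a difference between groups against the spread between rats, which edgeR estimates with information shared across genes.

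IGF1 and IGF2 are small secreted growth factors related to insulin. Both act through the IGF1 receptor, a tyrosine kinase that signals to PI3K, AKT and mTOR and to the RAS pathway, while the IGF2 receptor takes IGF2 up for breakdown in lysosomes. The binding proteins hold the ligands outside the cell, prolong their stay and hide them from the receptor until proteases cut them free. In the heart, IGF1 made by fibroblasts and macrophages is known to act on muscle growth, survival and repair after injury.

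Of the 10 genes, 9 had enough reads to be tested and 4 of these were called higher in MI than in Sham (Igf1, Igfbp4, Igfbp6 and Igfbp7), where 5.82% of all genes tested were. The sequence just upstream of the start of these 4 genes is shown because the results turn on them. All 10 had an entry among RefSeq promoters (build GRCr8), with 11 sequences because Igf2 has a pair of starts. The 250 bases before the start are printed 5′ to 3′ on the strand of the gene, and capitals mark a TATA box (TATAAA) or a GC box (GGGCGG) on either strand.
Igf1 (chr7:24172282-24172531, + strand): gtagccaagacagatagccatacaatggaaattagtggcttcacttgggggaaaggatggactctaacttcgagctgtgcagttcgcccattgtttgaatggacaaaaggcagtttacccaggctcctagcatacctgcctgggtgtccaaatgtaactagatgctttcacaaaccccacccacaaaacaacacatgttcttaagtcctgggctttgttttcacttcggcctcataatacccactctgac
Igfbp4 (chr10:84491221-84491470, + strand): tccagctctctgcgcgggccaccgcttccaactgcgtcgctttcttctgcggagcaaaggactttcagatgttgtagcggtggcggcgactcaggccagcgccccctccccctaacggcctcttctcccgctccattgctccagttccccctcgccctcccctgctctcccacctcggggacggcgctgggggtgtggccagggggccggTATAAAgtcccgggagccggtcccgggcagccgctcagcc
Igfbp6 (chr7:135154669-135154918, + strand): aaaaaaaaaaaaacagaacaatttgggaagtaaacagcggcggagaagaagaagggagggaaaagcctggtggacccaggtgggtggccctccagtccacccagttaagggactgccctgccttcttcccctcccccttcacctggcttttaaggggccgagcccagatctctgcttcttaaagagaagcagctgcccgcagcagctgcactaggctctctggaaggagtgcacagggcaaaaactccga
Igfbp7 (chr14:31091486-31091735, + strand): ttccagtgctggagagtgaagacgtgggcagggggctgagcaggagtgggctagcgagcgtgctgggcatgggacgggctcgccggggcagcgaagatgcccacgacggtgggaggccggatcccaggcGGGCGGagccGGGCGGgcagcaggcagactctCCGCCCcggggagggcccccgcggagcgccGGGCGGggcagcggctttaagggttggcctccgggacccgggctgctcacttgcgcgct

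Igfbp4 had 1 TATA box, a motif found in 12.9% of 33469 RefSeq rat promoters of this length, and Igf1, Igfbp6 and Igfbp7 had 0. Igfbp7 held 4 GC boxes, a motif present in 30.5% of those promoters, and Igf1, Igfbp4 and Igfbp6 held 0. GC content was 46.8% for Igf1, 54.8% for Igfbp6, 68.8% for Igfbp4 and 74.4% for Igfbp7, beside a median of 51.2% over all promoters. E boxes (CANNTG, either strand) numbered 3 in Igf1, 2 in Igfbp4, 4 in Igfbp6 and 1 in Igfbp7, and 65.5% of all promoters had at least 1. TGANTCA, the AP-1 motif, was in 0 of the 11 sequences and in 6.34% of all promoters. A match of letters is a description of the sequence and not a binding site.

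The comparison of MI with Sham asks what the infarct did to the family. MI hearts had more RNA of the ligand gene Igf1 and of the binding protein genes Igfbp4, Igfbp6 and Igfbp7, by 1.80-fold to 2.47-fold. The RNA of both receptors stayed within the spread between rats, with fold differences of 1.02 for Igf1r and 1.03 for Igf2r. By edgeR's quasi-likelihood test with Benjamini-Hochberg adjustment over 18182 genes, 4 of the 9 members tested had an adjusted p-value under 0.05, all 4 higher in MI, where 11.4% of all genes tested were called (5.82% higher and 5.53% lower). In these same 4 genes the MI and Sham rats did not overlap, which held for 15.7% of all genes tested (8.12% with MI higher). The median log2 fold change was 0.29 over the 9 members and 0.03 over all genes tested. Igfbp2 had too few reads to be tested. The share of read pairs that the counter did not assign to a single gene also separated Sham from MI. It was 51.7% to 53.1% in Sham, 55.2% to 56.7% in MI and 52.8% to 57.1% in MI + UA, and its part in the differences was not tested.

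Igf1 (ENSRNOG00000004517) encodes the growth factor made by the liver and by many tissues under growth hormone. In Sham, Igf1 stood at 73.0, 77.2, 83.0 and 86.6 CPM. MI rats had Igf1 at 182, 124, 203 and 279 CPM. With UA the rats had Igf1 at 136, 248, 204 and 126 CPM. All 8 ligated rats were above all Sham rats, and the ligated rats were far more spread out than the Sham rats. The means were 79.9 ± 6.01 CPM in Sham, 197 ± 64.1 CPM in MI and 178 ± 57.97 CPM in MI + UA (SD, n = 4 each). The log2 fold change in MI versus Sham was 1.31 (standard error 0.20, 95% interval 0.88 to 1.73, edgeR adjusted p = 0.000223).

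Igf2 (ENSRNOG00000020369) encodes the ligand of fetal growth, which falls after birth in most rodent tissues. Sham rats had Igf2 at 52.6, 80.0, 91.7 and 88.2 CPM. In MI, Igf2 stood at 54.5, 46.7, 76.7 and 73.0 CPM. The UA-treated rats had Igf2 at 56.6, 47.4, 43.7 and 43.7 CPM. Sham rat 12 was as low as the ligated rats, and the other 3 Sham rats were above every ligated rat. The means were 78.1 ± 17.7 CPM in Sham, 62.7 ± 14.4 CPM in MI and 47.8 ± 6.10 CPM in MI + UA (SD, n = 4 each). In MI versus Sham the log2 fold change was -0.31 (standard error 0.16, 95% interval -0.64 to 0.02), and it did not pass the test (edgeR adjusted p = 0.244). Without Sham rat 12 it was -0.46 and passed (edgeR adjusted p = 0.0448). It was -0.20 without MI rat 57 (edgeR adjusted p = 0.492) and -0.11 with library totals without TMM (edgeR adjusted p = 0.743).

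The balance of reads between the ligands moved with the ligation. Reads of Igf1 divided by reads of Igf2 in the same library gave 0.905 to 1.39 in Sham, 2.65 to 3.82 in MI and 2.40 to 5.23 in MI + UA. The mean ratios were 1.06 ± 0.222, 3.12 ± 0.573 and 3.80 ± 1.37 (SD, n = 4 each). Every ligated rat was above every Sham rat. The ratio is of reads, not corrected for gene length, and is given as a description without a test.

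**Figure D1:**
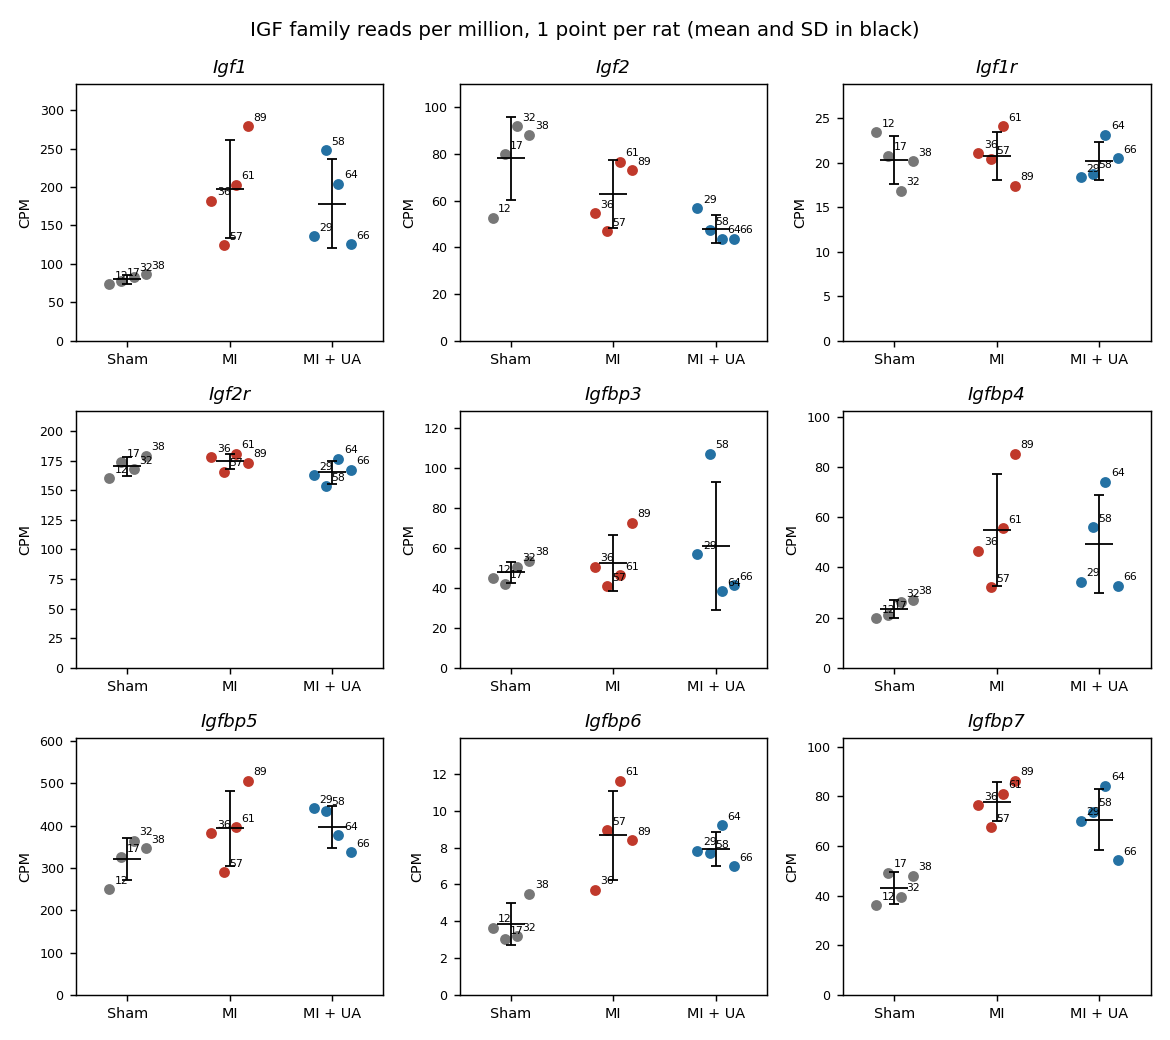
Levels of the 9 tested IGF family genes in CPM (vertical axes from 0), with 1 point per rat marked by its number and the mean with its SD in black, for Sham, MI and MI + UA (4 rats each). Igf1, Igfbp4, Igfbp6 and Igfbp7 of all MI and MI + UA rats lie above those of all Sham rats, and Igf1r and Igf2r of the 3 groups overlap.

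The receptors differed little between the groups, and Igf2r had the smallest coefficient of variation of the 9 tested members within each group (3.79% to 5.89%). Igf1r (ENSRNOG00000014187), the signalling receptor of both ligands, was at 23.5, 20.8, 16.8 and 20.1 CPM in Sham. In MI, Igf1r stood at 21.1, 20.4, 24.1 and 17.4 CPM. MI + UA rats had Igf1r at 18.3, 18.8, 23.1 and 20.5 CPM. The 3 groups overlapped throughout, and the log2 fold change in MI versus Sham was 0.02 (standard error 0.12, 95% interval -0.24 to 0.28, edgeR adjusted p = 0.944). Igf2r (ENSRNOG00000014997) encodes the receptor that clears IGF2 and also carries newly made enzymes to lysosomes. Sham rats had Igf2r at 160, 174, 168 and 179 CPM. In MI, Igf2r stood at 178, 166, 181 and 173 CPM. With UA, Igf2r was at 163, 153, 177 and 168 CPM. These rats also overlapped, and the log2 fold change in MI versus Sham was 0.04 (standard error 0.07, 95% interval -0.12 to 0.19, edgeR adjusted p = 0.834).

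Igfbp4 (ENSRNOG00000010635) encodes a binding protein that mostly restrains IGF action and releases its ligand when pappalysin cuts it. In Sham, Igfbp4 stood at 19.8, 21.1, 26.1 and 27.1 CPM. MI rats had Igfbp4 at 46.6, 32.1, 55.6 and 85.3 CPM. The MI + UA rats had it at 34.3, 56.0, 74.0 and 32.7 CPM. No ligated rat reached down to the Sham rats, and MI rats 57 and 89 marked the low and the high end of their group, as they did for Igf1. The means were 23.5 ± 3.60 CPM in Sham, 54.9 ± 22.4 CPM in MI and 49.3 ± 19.6 CPM in MI + UA (SD, n = 4 each). In MI versus Sham the log2 fold change was 1.24 (standard error 0.26, 95% interval 0.71 to 1.77, edgeR adjusted p = 0.00273).

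Igfbp6 (ENSRNOG00000010977), whose product binds IGF2 more tightly than IGF1, was read at low depth, with 19 to 137 reads per library. Sham rats had Igfbp6 at 3.64, 3.03, 3.20 and 5.48 CPM. In MI, Igfbp6 stood at 5.70, 8.94, 11.6 and 8.39 CPM. After UA, Igfbp6 was at 7.83, 7.71, 9.20 and 6.98 CPM. The groups were separate, but the lowest MI rat (36) was close to the highest Sham rat (38). The log2 fold change in MI versus Sham was 1.14 (standard error 0.23, 95% interval 0.67 to 1.61, edgeR adjusted p = 0.00205).

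Igfbp7 (ENSRNOG00000002050) encodes a more distant relative that binds IGFs weakly, sits in vessel walls and is measured in plasma in heart failure. In Sham, Igfbp7 stood at 36.004, 49.2, 39.6 and 48.0 CPM. MI rats had Igfbp7 at 76.5, 67.6, 81.0 and 86.2 CPM. UA-treated rats had Igfbp7 at 70.2, 73.7, 84.2 and 54.2 CPM. All ligated rats were higher than all Sham rats, with rat 66 the lowest of them. Its log2 fold change in MI versus Sham, 0.85, had the smallest adjusted p of the family (standard error 0.13, 95% interval 0.59 to 1.11, edgeR adjusted p = 0.000140).

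Igfbp3 and Igfbp5 did not pass the test. Igfbp5 (ENSRNOG00000017206), whose product attaches to extracellular matrix, was at 250, 325, 365 and 347 CPM in Sham. In MI, Igfbp5 stood at 382, 290, 397 and 506 CPM. MI + UA rats had Igfbp5 at 441, 435, 378 and 337 CPM. The MI rat was the higher in 13 of the 16 pairs of an MI and a Sham rat, with rat 57 inside the Sham range. The log2 fold change was 0.29 (standard error 0.14, 95% interval 0.01 to 0.58, edgeR adjusted p = 0.194), and without MI rat 57 it was 0.41 and passed (edgeR adjusted p = 0.0386). It was 0.15 without MI rat 89 and 0.19 without Sham rat 12 (edgeR adjusted p = 0.571 and 0.449), and 0.49 with library totals without TMM (edgeR adjusted p = 0.0573). Igfbp3 (ENSRNOG00000061910), the main carrier of IGFs in blood, was at 44.8, 42.1, 50.7 and 53.7 CPM in Sham. In MI, Igfbp3 stood at 50.5, 40.8, 46.2 and 72.6 CPM. The UA group had Igfbp3 at 56.9, 107, 38.3 and 41.3 CPM. Rats 89 and 58 were high in their groups and all groups overlapped. The log2 difference of MI from Sham was 0.14 (standard error 0.24, 95% interval -0.35 to 0.63, edgeR adjusted p = 0.784). Without MI rat 89 that value was -0.055.

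Igfbp2 (ENSRNOG00000016957) was close to absent from the libraries. It had 3 reads in all, 1 each in MI rat 36 and MI + UA rats 29 and 58, and 0 in every Sham rat. A count of 0 allows up to 3 reads, or 0.169 to 0.505 CPM depending on the library (counting error only), so no fold was computed. In RefSeq's GRCr8 annotation Igfbp2 and Igfbp5 are neighbours on chromosome 9 with 0 protein-coding genes between them, and Igfbp5 had 46302 reads in all. Igfbp1 and Igfbp3 are neighbours on chromosome 14 in the same way, and there Igfbp1 had 0 reads and Igfbp3 had 6534. These totals are not corrected for gene length.

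The make-up of binding protein RNA was compared as the share of all reads on Igfbp2 to Igfbp7 that each gene took in a library. Igfbp5 took 72.9% ± 2.04 in Sham and 67.0% ± 0.852 in MI (SD, n = 4 each), with every MI rat (66.01% to 68.1%) below every Sham rat (70.6% to 75.3%). The share of Igfbp4 was 5.35% ± 0.390 in Sham and 9.07% ± 1.69 in MI, and that of Igfbp7 was 9.87% ± 1.25 and 13.5% ± 1.64 (SD, n = 4 each). Igfbp6 had shares of 0.879% ± 0.241 in Sham and 1.53% ± 0.544 in MI, and Igfbp3 had 10.95% ± 1.29 and 8.91% ± 0.769 (SD, n = 4 each). In MI + UA the share of Igfbp5 was 68.1% ± 4.31 (SD, n = 4) and fell into separate pairs, with rats 29 and 66 at 72.3% and 71.3% and rats 58 and 64 at 63.997% and 64.7%. The summed level of these genes was 440 ± 60.3 CPM in Sham, 588 ± 131 CPM in MI and 586 ± 86.5 CPM in MI + UA (SD, n = 4 each). These shares follow from the levels above and were not tested.

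**Figure D2:**
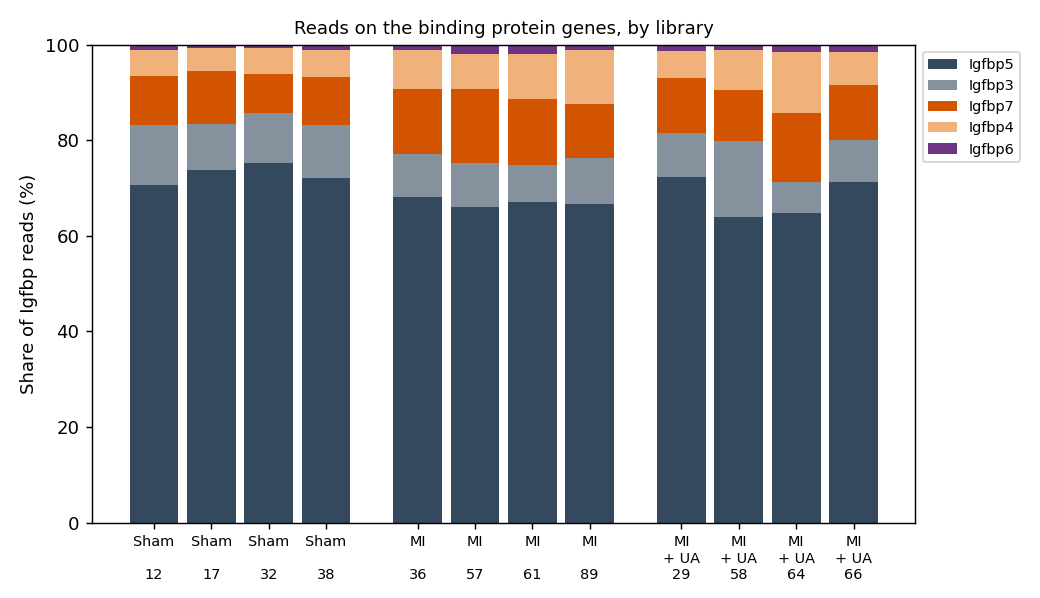
Share of the reads on binding protein genes taken by each gene (vertical axis, percent), 1 stacked bar per library with its rat number, for Sham, MI and MI + UA. Igfbp5 takes 70.6% to 75.3% in Sham and 66.01% to 68.1% in MI; Igfbp2, with at most 1 read per library, is not drawn.

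The comparison of MI + UA with MI asks whether the treatment moved these genes in infarcted hearts. No difference in a family gene was detected at this number of rats. Between MI + UA and MI, 0 of the 9 members tested had an adjusted p-value under 0.05, as did 0% of all 18182 genes (edgeR adjusted p = 1.00 for each member). DESeq2 also called 0 of all genes, and 689 genes (3.79%) had an unadjusted edgeR p-value under 0.05. The MI and MI + UA rats overlapped in each of the 9 members, and 2.34% of all genes tested showed no overlap. The median log2 fold change over the 9 members was -0.13, and over all genes tested it was 0.0047.

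Igf2 was the member with an unadjusted p-value under 0.05 in this comparison. Its difference on the log2 scale was -0.39 (standard error 0.16, 95% interval -0.72 to -0.06), and the MI + UA rat was the higher in 3 of 16 pairs. The unadjusted edgeR p was 0.0220 and the adjusted one 1.00. The intervals of the other ligand and the receptors all took in 0, at -0.56 to 0.25 for Igf1, -0.29 to 0.21 for Igf1r and -0.23 to 0.07 for Igf2r on the log2 scale. Those of the binding proteins ran from -0.69 to 0.30 for Igfbp4, from -0.54 to 0.29 for Igfbp6 and from -0.40 to 0.10 for Igfbp7. Igfbp5 and Igfbp3 had intervals of -0.27 to 0.30 and -0.29 to 0.67. If rat 66 was placed among the MI rats, the values of Igf1, Igfbp4 and Igfbp7 turned from -0.15, -0.20 and -0.15 to 0.095, 0.094 and 0.055. The same move took Igf2 from -0.39 to -0.25 and Igfbp3 from 0.19 to 0.42.

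MI + UA was also compared with Sham, which shares its Sham rats with the comparison of MI and its MI + UA rats with the comparison of treatment. Here 5 of the 9 members passed the test, where 9.44% of all genes tested did (5.16% higher and 4.27% lower). For Igf1 the log2 difference was 1.15, higher in MI + UA (edgeR adjusted p = 0.000984, standard error 0.20). Igfbp4 was higher by 1.04 (standard error 0.26, edgeR adjusted p = 0.0121), a call that was lost without MI + UA rat 64 (0.78, edgeR adjusted p = 0.0559). For Igfbp6 and Igfbp7 the log2 fold changes were 1.01 and 0.70 (edgeR adjusted p = 0.00606 and 0.00117). These 4 genes showed no overlap between MI + UA and Sham, as did 14.3% of all genes tested (7.83% with MI + UA higher).

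Igf2 was the fifth gene called and was lower in MI + UA than in Sham, by -0.70 on the log2 scale (95% interval -1.03 to -0.37, standard error 0.16, edgeR adjusted p = 0.00709). Sham rat 12 lay below MI + UA rat 29, so the groups overlapped, and the MI + UA rat was the higher in 1 of 16 pairs. Scaled by library totals without TMM, the difference was -0.55 and did not pass (edgeR adjusted p = 0.0660). That Igf2 passed here and not in MI versus Sham does not show that MI + UA and MI differed, since their direct comparison failed the adjustment. Igfbp5 and Igfbp3 had log2 fold changes of 0.31 and 0.34 (edgeR adjusted p = 0.190 and 0.440). The receptors had values of -0.02 for Igf1r and -0.04 for Igf2r.

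**Figure D3:**
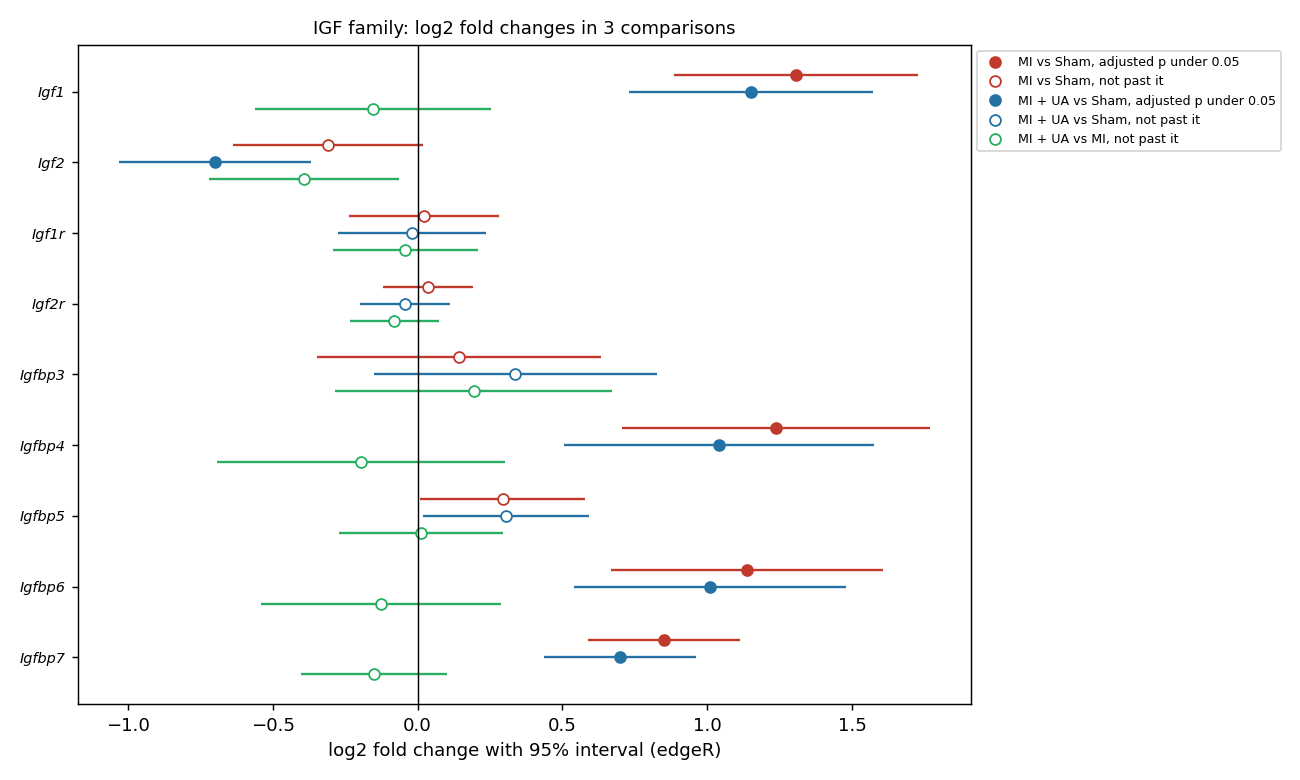
Log2 fold change with its 95% interval (horizontal axis) of each of the 9 tested genes in MI versus Sham, MI + UA versus Sham and MI + UA versus MI, from 1 edgeR fit of 12 libraries; filled points have an adjusted p-value under 0.05. Igf1, Igfbp4, Igfbp6 and Igfbp7 are filled on the right in both comparisons with Sham, Igf2 is filled on the left in MI + UA versus Sham, and no point of MI + UA versus MI is filled.

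The ventricle sections differed in their cell type markers along with these genes. In whole-tissue RNA, fewer cells of a type and less RNA per cell cannot be told apart. Summed fibroblast markers (10 genes) ranged from 1260 to 1590 CPM in Sham, 2439 to 4192 CPM in MI and 2502 to 4230 CPM in MI + UA, and 8 of the 10 were called higher in MI than in Sham, where 5.82% of all genes tested were called higher and 5.53% lower. Macrophage markers (8 genes) summed to 121 to 152 CPM, 246 to 397 CPM and 206 to 424 CPM, with 7 of the 8 called higher in MI. Cardiomyocyte markers (10 genes) summed to 52831 to 59532 CPM in Sham, 37102 to 43559 CPM in MI and 39021 to 50989 CPM in MI + UA, and 9 of the 10 were called lower in MI. Smooth muscle and pericyte markers summed to 1047 to 1129 CPM, 1018 to 1128 CPM and 967 to 1086 CPM, with 5 of 8 called higher and 1 lower in MI. Their median log2 fold change in MI versus Sham was 0.52, so the overlapping sums do not stand for each gene of that list. Endothelial markers ranged from 770 to 888 CPM, 697 to 822 CPM and 648 to 782 CPM, with 1 of 8 called, lower in MI. Adipocyte markers summed to 110 to 150 CPM in Sham, 97.1 to 125 CPM in MI and 83.9 to 106 CPM in MI + UA, with every MI + UA sum below every Sham sum. Of the 3 tested, 0 were called in MI versus Sham and 1 was called lower in MI + UA versus Sham (4.27% of all genes tested were). The median log2 fold change of the 3 went the other way, at 1.89 in MI and 1.31 in MI + UA versus Sham. The adipocyte sums therefore do not stand for each gene of that list. Mesothelial markers stayed at or under 3.85 CPM in every library with 0 of 4 called. No marker found in the table was at 0 in all libraries (Krt19, a mesothelial marker, was not found by symbol), and cardiomyocyte markers were present in every library, as the heart label states.

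Igf1 and Igfbp4 were set beside these marker sums rat by rat. Among MI rats, rat 89 had the highest Igf1 (279 CPM), the highest Igfbp4 (85.3 CPM), and the highest fibroblast and macrophage sums (4192 and 397 CPM). Rat 57 had the lowest Igf1 (124 CPM) and Igfbp4 (32.1 CPM) of that group and the lowest fibroblast sum (2439 CPM), while the lowest macrophage sum of that group (246 CPM) was in rat 36 and rat 57 had 266 CPM. In MI + UA, rat 58 had the highest Igf1 (248 CPM) and fibroblast sum (4230 CPM), and rat 64 the highest Igfbp4 (74.0 CPM) and macrophage sum (424 CPM). Rat 66 had the lowest Igf1 of the MI + UA rats (126 CPM), Igfbp4 (32.7 CPM), fibroblast sum (2502 CPM) and macrophage sum (206 CPM) and the highest cardiomyocyte sum (50989 CPM). Igfbp6 did not follow this order in MI, where rat 36 had the lowest level (5.70 CPM) with a fibroblast sum of 3125 CPM and rat 57 had 8.94 CPM. Igfbp7 was lowest in rats 57 and 66 (67.6 and 54.2 CPM) of their groups and highest in rats 89 and 64 (86.2 and 84.2 CPM). The part of tissue make-up in the differences of Igf1, Igfbp4, Igfbp6 and Igfbp7 was not tested.

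**Figure D4:**
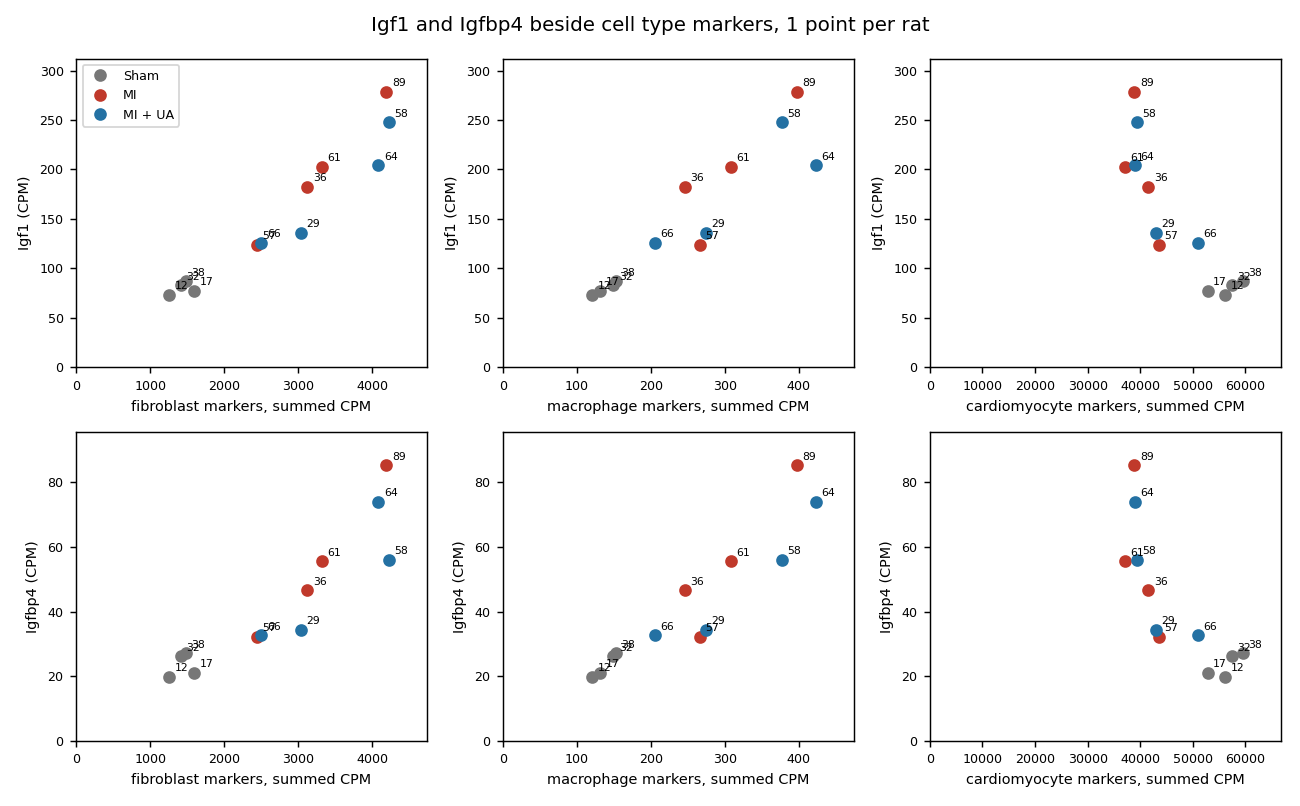
Igf1 (upper row) and Igfbp4 (lower row) in CPM against the summed CPM of fibroblast, macrophage and cardiomyocyte markers, 1 point per rat with its number, for Sham, MI and MI + UA. Rats 89, 58 and 64 lie at the upper right against fibroblast and macrophage markers, and the Sham rats lie at the lower left.

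For each member called in MI versus Sham, the 2 genes whose log2 CPM ran most like it over the 12 libraries were taken. Among 10929 genes searched, Igf1 ran closest to Col6a2 (Pearson r = 0.987), a collagen VI chain, and Col12a1 (r = 0.980), a fibril-associated collagen. Igfbp4 ran closest to Spon1 (r = 0.981), a matrix protein, and Fcer1g (r = 0.978), a signalling chain of immune receptors. For Igfbp7 they were Adamts2 (r = 0.972), which trims procollagen, and Fbn1 (r = 0.970), the microfibril protein fibrillin. Igfbp6 had C1qb (r = 0.972), a complement gene that is also in the macrophage list, and Anxa7 (r = 0.9499), an annexin. After the group means were taken out, r was 0.963 for Igf1 with Col6a2, 0.960 for Igfbp4 with Spon1, 0.893 for Igfbp6 with C1qb and 0.864 for Igfbp7 with Adamts2. Within the family, Igf1 and Igfbp4 ran together most closely, with r of 0.964 over the 12 libraries and 0.924 within groups. Igf2 ran with Igfbp5 within groups (0.862) and not over the 12 libraries (0.164). These values describe 12 libraries that share groups, tissue make-up and scaling, and the highest were picked out of many.

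The wider IGF axis was described through 40 further genes in lists of extracellular regulators, receptors and RNA binders, and signalling below the receptor. Of these, 38 were found in the table by symbol (Pappa and Foxo4 were not) and 35 were tested. Igfbp1 (0 reads), Igfbpl1 (5 reads) and Igf2bp1 (3 reads) fell below the filter. In MI versus Sham, 8 of the 35 passed, 3 higher and 5 lower, against the 11.4% of all genes tested, and the median log2 fold change was 0.0072. In MI + UA versus MI, 0 passed and 2 had an unadjusted p-value under 0.05 (edgeR), with 0 called by DESeq2. In MI + UA versus Sham 6 passed, 4 higher and 2 lower, against 9.44% of all genes tested (5.16% higher and 4.27% lower). The higher calls in both comparisons with Sham include Pappa2, which met the count filter only through the ligated rats. That call is no separate support for a difference, and the counts are to be read with this limit. The count in MI versus Sham fell to 5 without Sham rat 12, MI rat 61 or MI rat 89 and to 4 without Sham rat 38. In MI + UA versus Sham it fell to 3 without Sham rat 12. Without MI + UA rat 66, and also with DESeq2, the split in MI + UA versus Sham was 4 higher and 4 lower. Scaling by library totals without TMM, which moved the median of all genes by 0.19 in MI versus Sham, turned the split of 3 higher and 5 lower into 6 higher and 0 lower.

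Outside the cell, 2 of 7 tested genes passed in MI versus Sham, 1 higher and 1 lower, where 11.4% of all genes tested did. The lower call was that of Stc2. The higher one was that of Pappa2, which is no separate support for the reason given below, so this count is not read against that share. Pappa2 (ENSRNOG00000042860) encodes a protease that frees IGFs by cutting IGFBP3 and IGFBP5. It had 1, 1, 1 and 0 reads in the Sham rats, 23, 5, 14 and 13 in the MI rats and 42, 22, 7 and 19 in the MI + UA rats. Every ligated rat had at least 5 reads and no Sham rat more than 1. Summed over rats, the ratio of Pappa2 CPM was 12.8 in MI to Sham (95% Poisson interval 4.15 to 63.8) and 17.4 in MI + UA to Sham (5.76 to 85.9), intervals that cover counting error only. Its edgeR adjusted p was 0.00180 and 0.000482, but with 3 reads summed over the Sham rats Pappa2 met the minimum of 10 counts only through the ligated rats, so these calls are no separate support for a difference.

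Stc2 (ENSRNOG00000020729) encodes stanniocalcin, a secreted inhibitor of the pappalysin proteases. In Sham, Stc2 stood at 10.5, 11.98, 8.08 and 11.1 CPM. MI rats had Stc2 at 7.09, 4.08, 5.19 and 7.74 CPM. The MI + UA rats had Stc2 at 5.83, 5.52, 6.09 and 6.36 CPM. All ligated rats were below all Sham rats, with log2 fold changes of -0.76 in MI versus Sham (standard error 0.18, edgeR adjusted p = 0.00823) and -0.81 in MI + UA versus Sham (standard error 0.18, edgeR adjusted p = 0.00620). The call in MI versus Sham was lost with library totals without TMM, with an edgeR adjusted p of 0.0684.

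Among receptors and RNA binders, 1 of 5 tested genes passed in MI versus Sham, a share to be read against the same 11.4%. Ghr (ENSRNOG00000015654), the growth hormone receptor that drives Igf1 in liver, was at 136, 133, 126 and 124 CPM in Sham. In MI, Ghr stood at 101, 97.4, 83.3 and 102 CPM. With UA, Ghr was at 107, 101, 103 and 124 CPM. MI rats were all below Sham rats, while MI + UA rat 66 reached the Sham range. The log2 fold change was -0.44 in MI versus Sham (standard error 0.09, edgeR adjusted p = 0.00203) and -0.25 in MI + UA versus Sham (edgeR adjusted p = 0.0731). The first of these calls was lost with library totals without TMM (edgeR adjusted p = 0.0747). Ghr in MI + UA versus MI had a log2 fold change of 0.19 and an unadjusted edgeR p of 0.0432.

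Of 23 tested signalling genes, 5 passed in MI versus Sham and 4 in MI + UA versus Sham, where 11.4% and 9.44% of all genes tested did. Shc1 (ENSRNOG00000020657) encodes an adaptor that links the receptor to the RAS pathway. In Sham, Shc1 stood at 25.0, 31.2, 26.6 and 27.5 CPM. MI rats had Shc1 at 38.6, 39.2, 45.1 and 43.7 CPM. The rats given UA had Shc1 at 40.8, 44.2, 47.9 and 38.4 CPM. Ligated and Sham rats were separate, with log2 fold changes of 0.60 and 0.63 in MI and in MI + UA versus Sham (edgeR adjusted p = 0.000475 and 0.000380), and the calls held under each alternative tried. The other calls were smaller, and each was lost when at least 1 single rat was left out. Grb10, an adaptor that dampens the receptor, was higher with log2 fold changes of 0.31 and 0.32 (edgeR adjusted p = 0.0265 and 0.0230). Mtor, the kinase that drives growth, had log2 fold changes of -0.35 and -0.33 (edgeR adjusted p = 0.0179 and 0.0271), and Grb14, an adaptor related to Grb10, and Sos1, an activator of RAS, were lower in MI by -0.31 and -0.27 (edgeR adjusted p = 0.0241 and 0.0442). In MI + UA versus Sham, Pik3r1, a regulatory subunit of PI3K, was higher by 0.35 (edgeR adjusted p = 0.0240). Leaving out Sham rat 38 ended the calls of Grb10, Mtor, Grb14 and Sos1 in MI versus Sham. Those of Grb10 were lost as well without Sham rats 12 or 17 and, against MI, without MI rat 89 and, against MI + UA, without MI + UA rat 58 (largest edgeR adjusted p over the alternatives 0.0846 and 0.0793). Mtor was also lost without Sham rat 12 or MI rat 61 in MI versus Sham, and without Sham rats 12, 32 or 38 or MI + UA rat 58 in MI + UA versus Sham (largest edgeR adjusted p 0.383 and 0.348, both with library totals without TMM). For Grb14 Sham rat 32 and MI rats 61 and 89 also decided the call, and it was lost with library totals without TMM (largest edgeR adjusted p 0.478), and that of Sos1 held in only 9 of 20 alternatives (largest edgeR adjusted p 0.705). Pik3r1 was lost without Sham rats 12, 17 or 32 or MI + UA rat 29 (largest edgeR adjusted p 0.0851).

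**Figure D5:**
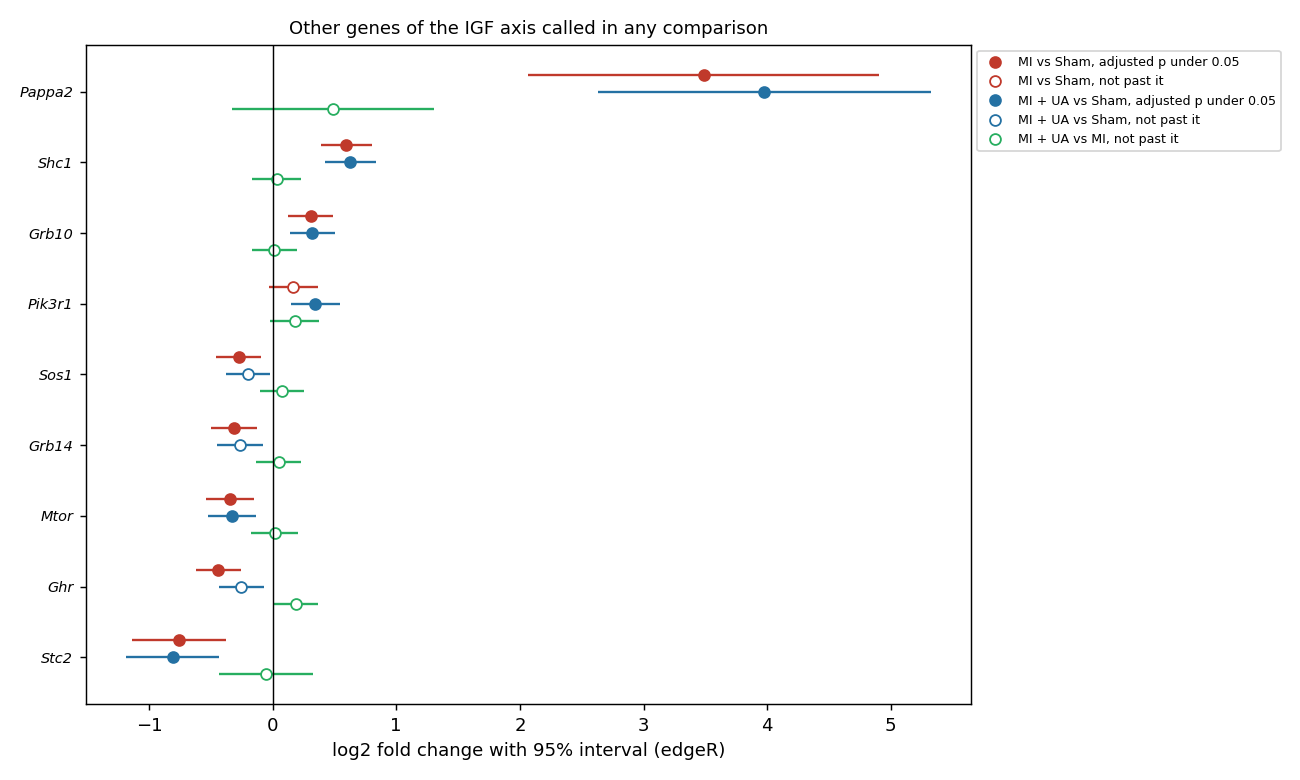
Log2 fold change with its 95% interval (horizontal axis) of the 9 further IGF axis genes with an adjusted p-value under 0.05 in any comparison, for MI versus Sham, MI + UA versus Sham and MI + UA versus MI; filled points passed the edgeR test. Pappa2 lies farthest to the right, at 3.49 and 3.98 against Sham, where the Sham rats had at most 1 read, and no point of MI + UA versus MI is filled.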

How the data were processed

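The 12 libraries were made from fixed ventricle sections with depletion of ribosomal RNA per the extract protocol, although the labels name the molecule as polyA RNA. The authors mapped read pairs to rat mRatBN7.2 with STAR 2.6.1c, counted them per Ensembl gene with HTSeq and summarised quality with MultiQC 1.8 (submitters' processing notes and methods). The deposited values are raw counts, without normalization. The strand setting of the counter is not given in the sources used here, so overlapping genes on opposite strands may share reads. A further MI + UA library that the study excluded was not analysed here. Of all read pairs in the counter's output, 51.7% to 57.1% per library were not assigned to a single gene (5 summary lines, left out). This share was larger in every MI than in every Sham library.

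Groups came from the treatment labels, and the replicate numbers are rat numbers. No batch is given in the labels. Genes with at least 10 counts in total (18182 of 30560) were tested with edgeR 4.0.16 (R 4.3.3): TMM scaling, quasi-likelihood test, 3 groups in one fit, Benjamini-Hochberg adjustment over all genes tested, threshold 0.05. Standard errors are the log2 fold change over the square root of F, with 95% intervals from the t distribution of the fit. Log2 CPM for correlations used a prior count of 1. The code of the tests was run on simulated counts with 200 changed genes, far fewer than the 2064 called here in MI versus Sham. That run does not bear on how often calls in these data are wrong. DESeq2 1.42.0, other filters and scalings, and other sets of rats were alternatives. The members and gene lists were chosen with earlier results of these data known, so the lists give no separate evidence. A signalling gene was taken off its list, for a reason that did not depend on its values, and is neither reported here nor in the counts of that list. Named genes were all members, each axis gene with an adjusted p-value under 0.05 or under the filter, the 2 genes most correlated with each member called in MI versus Sham (average log2 CPM of at least 1), and marker lists as sums. Igfals was added after its values were seen. Promoters came from RefSeq GRCr8, a different build from that of the counts, so no gene coordinates are given for the counts. Gene lengths and protein sequences were not used here.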

Additional observations from a re-analysis of the deposited data

How the results depend on the processing

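No paired analysis was possible because the replicate numbers are rat numbers and none is shared between groups. In MI versus Sham the calls of Igf1, Igfbp4, Igfbp6 and Igfbp7 held in all 20 alternatives (largest edgeR adjusted p = 0.0145, for Igfbp4), and the number of family genes called stayed at 4 or 5. The 20 include fits that left out a rat of the group not compared, which can move a comparison only through the shared fit. In MI + UA versus MI and MI + UA versus Sham the same number of alternatives was tried. The number of family genes called was 0 throughout in MI + UA versus MI, and 4 or 5 in MI + UA versus Sham. Over all genes, MI + UA versus MI gave 3 calls with no filter beyond 1 count and 1 without MI rat 36. Counts of IGF axis genes ranged from 4 to 8 in MI versus Sham and from 3 to 8 in MI + UA versus Sham when 1 rat was left out; the alternatives for the latter count were chosen after seeing the data.

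Library totals without TMM shifted the median of all genes by 0.19 in MI versus Sham, 0.15 in MI + UA versus Sham and -0.04 in MI + UA versus MI. This reversed the log2 fold changes of Igfbp5 in MI + UA versus MI (-0.022) and of Igf1r and Igf2r in MI + UA versus Sham (0.14 and 0.11), and these latter values are below the shift. Counting rat 66 in MI gave 0.095 for Igf1, 0.094 for Igfbp4 and 0.055 for Igfbp7 in MI + UA versus MI. Leaving out single rats gave ranges across 0 in MI versus Sham for Igf1r (-0.057 to 0.10) and Igfbp3 (-0.055 to 0.24). In MI + UA versus MI they were -0.12 to 0.038 for Igf1r, -0.11 to 0.16 for Igfbp5, -0.30 to 0.055 for Igfbp6, -0.21 to 0.39 for Igfbp3, -0.35 to 0.062 for Igf1 and -0.46 to 0.10 for Igfbp4. In MI + UA versus Sham they were -0.094 to 0.058 for Igf1r and -0.063 to 0.49 for Igfbp3. None of these was called, and the cause was not tested. Depth limits Igfbp2 and Pappa2, with at most 1 and 42 reads per library, and Igfbp6, with 19 to 137.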

Other observations

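Igfals encodes the acid-labile subunit that joins IGF and IGFBP3 or IGFBP5 in blood and is made mainly by the liver. It had 10 reads over all libraries: 2 in Sham rat 32, 0 in the other Sham rats and in every MI rat, and 2, 1, 2 and 3 in MI + UA rats 29, 58, 64 and 66. These counts lie at or under the limit of 3 reads that a count of 0 allows, so no fold is given, and the edgeR adjusted p in MI + UA versus MI was 1.00.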
